A study of Mus musculus with 2 samples.

Results

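The 10 genes described here mark the 2 ends of the small intestine, and they were read in RNA from TR1 cells (type 1 regulatory T cells, CD4 cells that make IL-10) isolated from that organ. Gata4, Onecut2, Lct, Fabp1, Pdx1 and Cybrd1 stand for the proximal end, and Fabp6, Slc10a2, Fgf15 and Cubn for the distal end. They were chosen by name as regional markers, 10 of the 19937 genes with 1 symbol in the array's annotation, to ask which end of the gut the epithelial signal in these T cell preparations resembles. Each of the 10 was read by 1 probe set, and 0 other probe sets listed any of them together with a second gene.

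There were 2 samples, with 1 array each. The impaired sample came from mice that carry the CD4-DNIL-10R transgene, a dominant-negative IL-10 receptor that the Cd4 gene's control elements drive in T cells; it is not meant for the epithelium. The wildtype sample came from mice with an intact receptor. Mice of both genotypes had received anti-CD3 antibody (clone 2C11, 15 μg into the peritoneum, 2 injections on alternate days), which activates T cells and injures the gut. Mice were killed 4 or 48 hours after the last injection, and the labels do not say which time applies to which sample, so genotype and time cannot be told apart. Age, the number of mice pooled, the stretch of intestine taken and the sort are not given in the labels.

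The small intestine changes its work along its length. The duodenum and jejunum take up iron, folate, sugars and most fat, and the transcription factor GATA4 holds the proximal program in place there. The ileum recovers bile acids and vitamin B12, and it signals to the liver through FGF15 once bile acids have entered the enterocyte. T cells are not a known source of lactase or of ileal bile acid transporters.

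The stretches before the start of the 4 genes named next are shown because these genes carry the work that separates the ends: Lct and Fabp1 digest and absorb proximally, and Fabp6 and Slc10a2 handle bile acids distally. The sequences are RefSeq's, on GRCm38.p6, 250 bases up to the gene's start, written 5′ to 3′ along the gene. Capitals mark the letters searched on both strands: AGATAA for GATA factors (its first A may also be T and its last A may also be G), GTTAAT for HNF1, CATAAA for CDX factors and CAAAGTCCA for HNF4. No marked stretches overlapped.
Lct, chr1:128328319-128328568, minus strand: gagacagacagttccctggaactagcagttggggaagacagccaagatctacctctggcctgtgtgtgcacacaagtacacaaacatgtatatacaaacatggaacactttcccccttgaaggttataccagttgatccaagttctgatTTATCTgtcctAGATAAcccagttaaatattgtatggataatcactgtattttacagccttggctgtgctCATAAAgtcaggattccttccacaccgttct
Fabp1, chr6:71199629-71199878, plus strand: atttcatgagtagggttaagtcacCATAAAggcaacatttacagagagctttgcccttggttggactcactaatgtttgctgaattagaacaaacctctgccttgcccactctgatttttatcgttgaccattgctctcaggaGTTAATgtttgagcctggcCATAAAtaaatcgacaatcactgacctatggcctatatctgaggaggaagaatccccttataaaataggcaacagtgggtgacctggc
Fabp6, chr11:43601563-43601812, minus strand: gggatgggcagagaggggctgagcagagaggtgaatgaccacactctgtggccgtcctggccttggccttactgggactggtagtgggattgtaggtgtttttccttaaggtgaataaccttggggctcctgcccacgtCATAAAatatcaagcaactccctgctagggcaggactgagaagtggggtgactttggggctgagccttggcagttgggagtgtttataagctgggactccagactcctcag
Slc10a2, chr8:5105288-5105537, minus strand: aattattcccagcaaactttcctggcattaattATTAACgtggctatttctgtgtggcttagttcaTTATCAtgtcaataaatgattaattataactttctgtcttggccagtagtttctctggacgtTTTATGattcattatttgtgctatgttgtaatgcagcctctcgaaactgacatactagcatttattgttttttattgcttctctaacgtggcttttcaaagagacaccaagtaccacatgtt

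The Lct stretch held 2 GATA matches, at positions -101 to -96 and -90 to -85 from the start, and 1 CDX match. Fabp1 held 1 HNF1 and 2 CDX matches, Fabp6 held 1 CDX match, and Slc10a2 held 1 match each for GATA, HNF1 and CDX. The letters of HNF4 were in 0 of the stretches. Of all 10 markers 7 had an entry in the promoter table; Pdx1, Cybrd1 and Cubn held 0 of the searched letters. Over 32536 stretches of the same length, 26.5% held a GATA match, 6.47% an HNF1 match, 10.8% a CDX match and 0.387% an HNF4 match. Matches thus stood at both ends of the gut and are a description of letters, not of bound sites.

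Values are log2 RMA expression, in which 1 unit is a 2-fold step in brightness, and differences are impaired minus wildtype. With 1 array per genotype there is no replicate error and no test, and precision is limited by having 2 arrays. As a rule of size, a gene was counted when it differed by at least 2-fold and lay past a floor. The floor was 6.91, the middle of all probe sets when each is averaged over the arrays, and the brighter array had to reach it. Over the 11124 genes past the floor the median difference was 0.00, the middle 95% lay between -0.51 and 0.85, and the scaled median absolute deviation was 0.25. Brightness depends on each probe set's own sequences, so the level of a marker is not ranked against that of another marker. The floor and the olfactory receptor probe sets used below serve only as a rough mark of dim signal.

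T cell and epithelial genes both gave signal on both arrays. All 8 T cell and TR1 markers lay past the floor on both arrays with differences between -0.19 and 0.10, among them Cd4 at 13.18 on the impaired array and 13.14 on the wildtype array. All 14 genes made along the whole intestinal epithelium also lay past it on both arrays, and all 14 had higher values in the impaired sample. Among all genes 51.8% lay past the floor on both arrays, and 50.2% of genes past the floor had a difference above 0. The median difference of the 14 was 0.80 (1.74-fold), in a range from 0.54 to 1.40. Their summed linear level was 27295 on the impaired array and 15258 on the wildtype array, a ratio of 1.79. In bulk RNA more cells of a type and more RNA per cell cannot be told apart.

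The markers past the floor on both arrays were proximal ones, and no distal marker rose above it in the wildtype sample. Gata4, Onecut2, Lct and Fabp1, 4 of the 6 proximal markers, lay past the floor on both arrays, against 0 of the 4 distal markers. Among all 19937 genes 51.8% did so. With so few markers, these counts are not read as a trait of either end. Pdx1 and Cubn passed in the impaired sample only, which makes 6 of 10 markers past the floor on at least 1 array, against 55.8% of all genes. Cybrd1, Fabp6, Slc10a2 and Fgf15 passed on neither array. A dim probe set does not show that a transcript is absent.

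**Figure D1:**
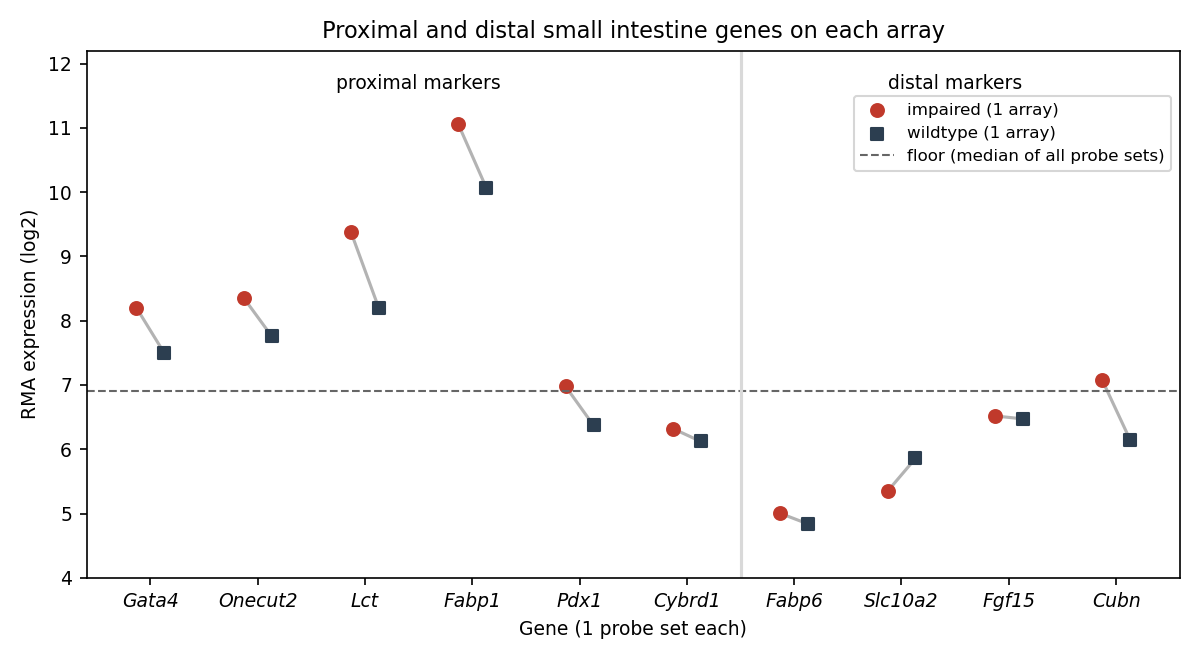
Log2 RMA expression (y axis) of the 10 regional markers (x axis), 1 probe set each, with a red circle for the impaired array, a blue square for the wildtype array and a grey line joining the pair. The dashed line is the floor of 6.91. Of the proximal genes 4 lie above it on both arrays, and of the distal genes only Cubn reaches it, on the impaired array.

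Fabp1 and Lct, the proximal genes of absorption and digestion, had the 2 largest differences of the 10. Lct encodes lactase, the brush border enzyme that splits milk sugar. It was at 9.38 on the impaired array and 8.19 on the wildtype array. Lct was brighter by 1.19 (2.28-fold), a difference exceeded by 0.683% of the genes past the floor. Fabp1 encodes the liver-type fatty acid binding protein, which carries long-chain fatty acids in enterocytes and hepatocytes. It was at 11.06 on the impaired array and 10.07 on the wildtype array, a difference of 0.99 (1.98-fold) that missed the 2-fold rule narrowly. After intensity-dependent centring it was 1.05 and met the rule. Hepatocyte genes were mostly under the floor: Alb, which encodes serum albumin, was at 5.66 on the impaired array and 5.94 on the wildtype array. Of 5 liver genes with a value, 1 (Apoa2, at 7.20 and 6.94, which the gut also makes) lay past the floor on both arrays. Among all genes 51.8% did so.

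Lct alone of the 10 markers was at least 2-fold brighter in the impaired sample, against a background of 1.46% of genes past the floor, and 0 of the 10 were 2-fold dimmer. A difference above 0 was seen for 9 of the 10, counting those under the floor. Of the markers past the floor 6 of 6 were above 0, against 50.2% of genes past the floor. At 1.5-fold, 6 of the 10 were brighter, against 5.89% of genes past the floor. Those 6 are also the 6 past the floor, and Pdx1 and Cubn among them passed it only through the impaired array where they are high. The other disaccharidases Sis (sucrase-isomaltase, 1.77), Mgam (maltase-glucoamylase, 1.16) and Treh (trehalase, 0.93) had positive differences beside that of Lct.

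The proximal transcription factors differed by less than the digestive genes. Gata4 encodes the zinc finger factor that maintains proximal identity and represses ileal genes. It was at 8.20 on the impaired array and 7.50 on the wildtype array, a difference of 0.71 (1.63-fold). Onecut2 encodes a homeodomain factor of the duodenum that the pancreas and liver also use in development. It was at 8.36 on the impaired array and 7.76 on the wildtype array, a difference of 0.59 (1.51-fold). Both lay past the floor on both arrays.

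Pdx1, the homeodomain factor shared by duodenum and pancreas, stood at the edge of what the array resolves. It was at 6.98 on the impaired array and 6.37 on the wildtype array, a difference of 0.61 (1.52-fold). Its wildtype value lay 0.53 under the floor, so the size of that difference is uncertain. Pancreatic genes went the other way. Of 11 with a value, 9 were past the floor, against 55.8% of all genes. All 9 were dimmer in the impaired sample and 8 of them at least 2-fold, against 0.198% of genes past the floor. Ctrb1, a chymotrypsin precursor, read 9.57 on the impaired array and 11.90 on the wildtype array. The summed linear level of the list was 2850 on the impaired array and 10130 on the wildtype array. Ins2, which encodes insulin, and Ptf1a, the acinar lineage factor, were under the floor on both arrays. What pancreatic RNA contributes to the Pdx1 signal was not tested.

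Cybrd1, the duodenal ferric reductase that prepares dietary iron for uptake, was the proximal marker that lay under the floor on both arrays. It was at 6.32 on the impaired array and 6.12 on the wildtype array, a difference of 0.20, and 15.7% of the genes that did not pass the floor and 1.46% of olfactory receptor genes, described below, differed by as much or more upwards. The rest of the iron pathway gave mixed values. Slc40a1, the exporter ferroportin, was at 6.99 on the impaired array and 6.21, under the floor, on the wildtype array (0.79). Heph, the ferroxidase that works with it, was at 7.88 and 7.08 in the same order (0.80). Slc11a2, the iron importer DMT1, differed by 0.03, and Fth1, ferritin heavy chain, and Tfrc, the transferrin receptor, differed by 0.04 and 0.06; all 3 are made by many cell types, T cells included. All 6 listed iron genes were above 0, against 50.2% of genes past the floor, with a median of 0.15, and 0 reached 2-fold.

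Among the distal markers, those of bile acid recovery were under the floor on both arrays. Slc10a2 encodes ASBT, the sodium-dependent transporter that takes bile acids up from the ileal lumen. It was at 5.35 on the impaired array and 5.86 on the wildtype array, a difference of -0.51, the only negative one of the 10. Fabp6 encodes the ileal bile acid binding protein of the enterocyte cytosol. It was at 5.004 on the impaired array and 4.837 on the wildtype array, a difference of 0.17. Fgf15, the hormone that ileal enterocytes release to lower bile acid synthesis in the liver, was at 6.52 on the impaired array and 6.47 on the wildtype array, a difference of 0.05.

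Olfactory receptor genes, which neither gut nor T cells are known to use widely, show what dim probe sets read on these arrays. Their 1035 probe sets had a median of 5.58 on the impaired array and 5.94 on the wildtype array. As many as 80.3% on the impaired array and 93.7% on the wildtype array read at or above the value of Fabp6, and 61.9% and 53.3% in the same order at or above that of Slc10a2. For Fgf15 the shares were 10.3% on the impaired array and 24.7% on the wildtype array, and for Cybrd1 15.7% and 41.6%. The olfactory receptor genes themselves read lower on the impaired array, with a median difference of -0.28 over 1027 genes. Over all 8813 genes that did not pass the floor the median difference was 0.02, so the whole dim range did not shift. Of the olfactory receptor genes 22.9% had a difference of -0.51 or lower, as Slc10a2 did. Among all genes that did not pass the floor 3.13% had one that low. By level, few olfactory receptor probe sets read at or above Gata4, Onecut2, Lct or Fabp1. The highest share was 1.84%, for Gata4 in the wildtype sample.

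**Figure D2:**
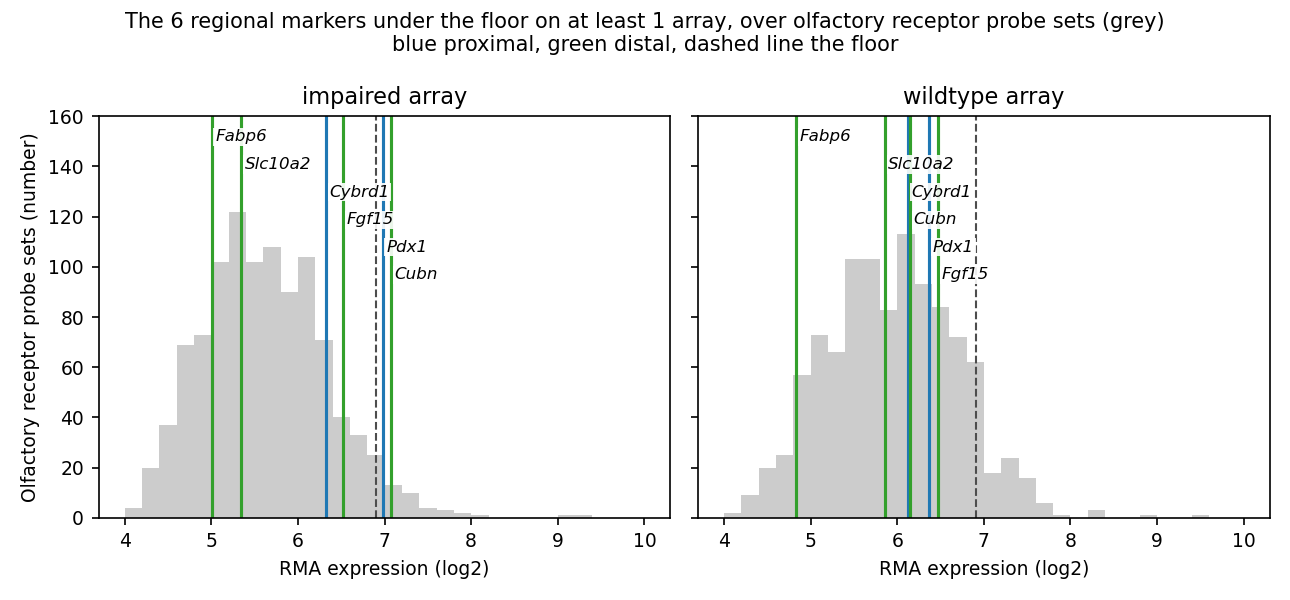
Histograms of log2 RMA expression (x axis) of 1035 olfactory receptor probe sets (y axis, number of probe sets per bin) on the impaired array (left) and the wildtype array (right). Vertical lines are the 6 regional markers under the floor on at least 1 array, blue for proximal and green for distal, and the dashed line is the floor of 6.91. Slc10a2 lies in the body of the histogram on both arrays and Fabp6 in its lower part, while Cubn and Pdx1 lie in its upper tail on the impaired array only.

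Cubn was the distal marker that did not go with the rest. It encodes cubilin, the receptor that takes up vitamin B12 bound to intrinsic factor in the ileum, and it is also abundant in kidney and yolk sac. Cubn was at 7.08 on the impaired array and 6.15 on the wildtype array, a difference of 0.93 (1.90-fold). On the impaired array 2.90% of olfactory receptor probe sets read as high or higher, against 40.3% on the wildtype array. Since the wildtype value lay 0.76 under the floor, the size of the difference is uncertain, and with 32 added to each linear value it was 0.70. Amn, amnionless, which anchors cubilin in the membrane, was at 7.26 on the impaired array and 7.03 on the wildtype array (0.22). Lrp2, megalin, a partner of cubilin in the kidney, was under the floor on both arrays, at 5.87 on the impaired array and 6.05 on the wildtype array. Over 7 vitamin B12 genes 4 were above 0 and 3 below, with a median of 0.06. Of the 4 past the floor, 2 were above 0, against 50.2% of genes past the floor. Tcn2, the blood carrier transcobalamin, led at 0.46, and 0 of the 7 reached 1.5-fold.

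The 4 markers past the floor on both arrays, Gata4, Onecut2, Lct and Fabp1, had differences within the range of the 14 pan-epithelial genes, 0.54 to 1.40. The differences of Pdx1 and Cubn were within it too, but these genes passed the floor only through the impaired array, which favours a positive difference. Gata4, Onecut2 and Pdx1 stood below the epithelial median by 0.09, 0.20 and 0.19, and Lct, Fabp1 and Cubn above it by 0.39, 0.19 and 0.13. The 4 markers under the floor on both arrays lay outside that range, all below it. Lying outside it is usual for dim genes: of those that did not pass the floor, 4.69% differed by 0.5 or more in either direction. The median over all 6 proximal markers was 0.66 and over all 4 distal markers 0.11, so that the first exceeded the second by 0.55. Restricted to genes past the floor the medians were 0.71 over 5 proximal genes and 0.93 over the 1 distal gene left, Cubn, which makes -0.22. That value rests on Cubn alone, which passed through the impaired array only. Whether the ends of the gut differ between the samples could therefore not be read from these 10 genes, because 3 of the 4 distal ones gave no level above the floor.

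**Figure D3:**
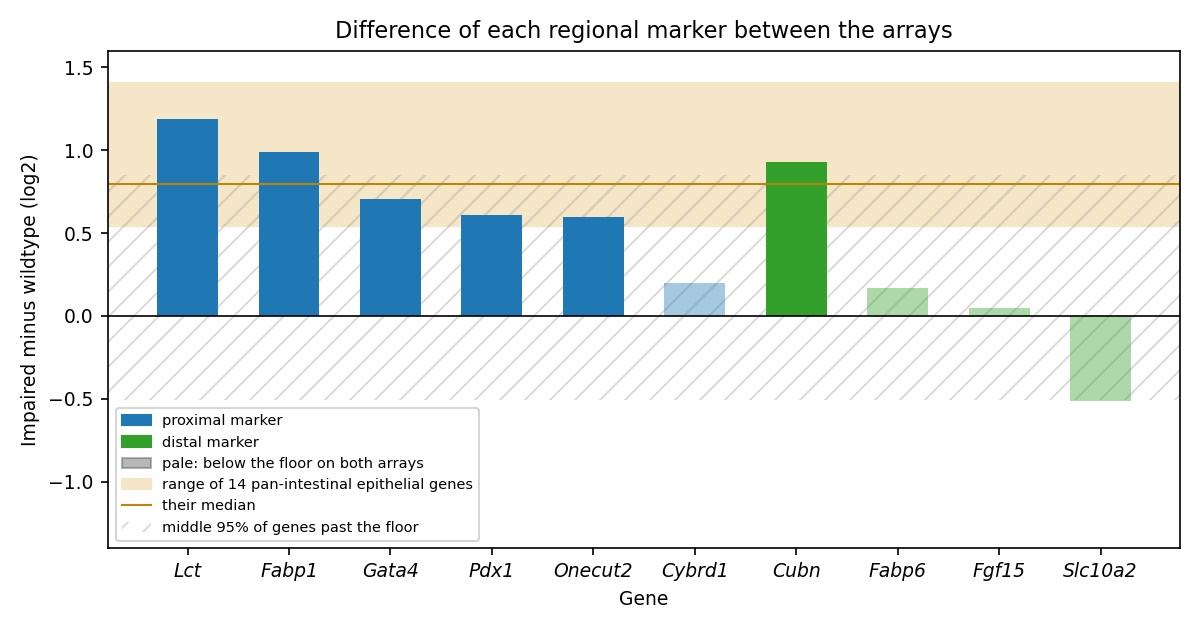
Log2 difference, impaired minus wildtype, of each of the 10 regional markers (bars from 0; blue proximal, green distal, pale where both arrays lie under the floor). The tan band is the range of 14 pan-intestinal epithelial genes, from 0.54 to 1.40, with their median of 0.80 as a line, and the hatched band is the middle 95% of genes past the floor. Within the tan band lie 5 proximal bars and that of Cubn.

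Other genes of the proximal gut were brighter in the impaired sample in most cases. Of 11, 9 lay past the floor on both arrays, against 51.8% of all genes. All 11 were above 0. That held for all 10 past the floor on at least 1 array, against 50.2% of genes past the floor. At least 2-fold brighter in the impaired sample were 3 of these 10, against 1.46%. The median over all 11 was 0.79, beside 0.80 over the 14 pan-epithelial genes. Slc40a1 and Slc11a2 among the 11 were also counted with the iron genes above. Slc2a2, the basolateral sugar transporter GLUT2, was at 8.11 on the impaired array and 6.91 on the wildtype array (1.20). Cck, the duodenal hormone cholecystokinin, was at 9.58 on the impaired array and 8.43 on the wildtype array (1.15), and Ccl25, the chemokine that draws T cells to the small intestine, at 9.97 and 8.90 in the same order (1.07). Slc2a5, the fructose transporter GLUT5, differed by 0.96, S100g, the calcium carrier calbindin-D9k, by 0.84, Gip, the hormone of proximal K cells, by 0.72, and Slc46a1, the proton-coupled folate transporter, by 0.51. Sct, secretin, differed by 0.26. Trpv6, the apical calcium channel, was under the floor on both arrays (0.03).

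Other distal genes were not all dim. Of 8, 4 lay past the floor on both arrays, against 51.8% of all genes. Above 0 were 6 and below it 2, and the median was 0.31. Of the 6 past the floor on at least 1 array, 5 were above 0, against 50.2% of genes past the floor. Amn among the 8 was also counted with the vitamin B12 genes above. Slc51b, a subunit of the basolateral bile acid exporter OST, was at 8.82 on the impaired array and 8.34 on the wildtype array (0.48), and its partner Slc51a at 7.16 and 6.48 in the same order (0.68), under the floor on the wildtype array. Pyy, a hormone of distal L cells, was at 7.71 on the impaired array and 7.32 on the wildtype array (0.39). Gcg, the L cell gene of GLP-1, which the pancreatic islet also expresses as glucagon, was at 8.25 on the impaired array and 8.53 on the wildtype array (-0.28). Nts, neurotensin of ileal N cells, was at 5.20 and 5.02 in the same order, under the floor. Slc51b, Amn, Pyy and Gcg were the 4 past the floor on both arrays. Slc51b, Pyy and Gcg are also made outside the ileum. What each source adds was not tested, here or for the proximal genes.

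Around Slc10a2, Fabp6 and Fgf15, partner genes of bile acid handling mostly had positive differences. Of 9 genes 7 were above 0 and 2 below, with a median of 0.48. Of the 6 past the floor on at least 1 array, 6 were above 0, against 50.2% of genes past the floor. None reached 2-fold. Slc51a, Slc51b, Nr1h4 and Nr0b2 are also among the other distal genes above, so they add no evidence to those. Slc51b, Abcc2 and Abcc3 lay past the floor on both arrays, and Slc51a, Nr1h4 and Fgfr4 on the impaired array only. Nr1h4, the bile acid receptor FXR that switches on Fgf15 and Fabp6, was at 7.02 on the impaired array and 6.29 on the wildtype array (0.73). The export pumps Abcc3 and Abcc2 differed by 0.95 and 0.84. Nr0b2, the FXR target SHP, was under the floor at 5.59 on the impaired array and 5.71 on the wildtype array. Cyp7a1, the rate-limiting enzyme of bile acid synthesis in the liver, and Klb, part of the FGF15 receptor, were under it too, and Fgfr4, the other part, was at 7.01 on the impaired array and 6.66 on the wildtype array.

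Most gut transcription factors other than the regional ones were brighter in the impaired sample. Of 7 with a value 6 lay past the floor on both arrays, against 51.8% of all genes. All 6 were at least 1.5-fold brighter, against 5.89% of genes past the floor. Cdx1, Cdx2 and Hnf4a among them are also in the pan-epithelial list, so they add no evidence to it. Hnf4g and Hnf4a, nuclear receptors that drive enterocyte genes, differed by 1.57 and 1.01, and Isx, a homeobox factor that controls vitamin A uptake, by 1.17. Cdx1 and Cdx2, the homeobox factors of intestinal identity, differed by 0.72 and 0.64, and Gata6, the relative of Gata4 that is present along the whole gut, by 0.61. Onecut1, unlike Onecut2, was under the floor on both arrays (6.11 on the impaired array and 6.09 on the wildtype array).

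**Figure D4:**
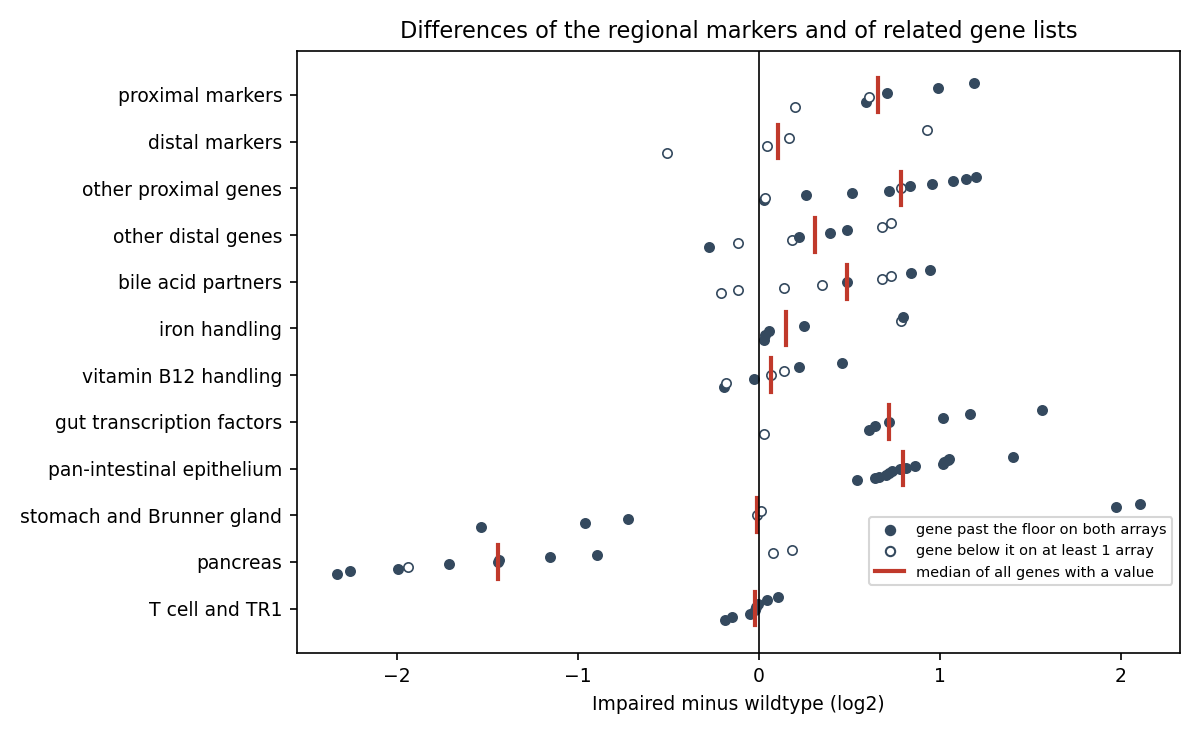
Log2 difference, impaired minus wildtype (x axis), of each gene (point) in the regional marker sets and related lists (y axis). Filled points lie past the floor on both arrays, open points do not, and red lines are medians over all genes with a value. Proximal, transcription factor and pan-epithelial genes lie mostly to the right of 0, pancreatic genes mostly to the left and T cell genes near 0.

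Stomach and Brunner gland genes also gave signal. Of 7, 5 lay past the floor on both arrays, against 51.8% of all genes. Muc6 and Tff2, products of Brunner glands and gastric mucous neck cells, were brighter in the impaired sample by 2.10 and 1.97, while the gastric surface genes Gkn2, Tff1 and Gkn1 had differences of -1.54, -0.96 and -0.72. Neutrophil genes were also brighter (6 of 6 above 0, median 2.08, with a summed linear level of 2827 on the impaired array and 757 on the wildtype array). Of the 6, 3 lay past the floor on both arrays, against 51.8% of all genes. Mmp8 and Ltf passed on the impaired array only, and Camp on neither. Stromal genes (4 of 4, median 0.28), B cell genes (3 of 3 with a value, 0.54) and macrophage genes (5 of 5, 0.18) were above 0, as 50.2% of genes past the floor were. Of these, 2 of the B cell and 3 of the macrophage genes were under the floor on both arrays. The stromal genes Dcn and Col3a1 and the macrophage gene C1qa passed on the impaired array only. The part of these tissues in the values of the 10 markers was not tested.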

How the data were processed

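Per the labels' protocols, TRIzol LS was used to extract RNA from the 2 samples, and oligo(dT)-primed cDNA was biotin-labelled for an Affymetrix array. The deposited values are log2 expression for 34760 probe sets, made with affy and RMA per the submitters' processing notes; the sources used here give no versions, genome build or detection calls. They ran from 3.84 to 14.7 in the impaired and from 3.86 to 14.6 in the wildtype sample. RMA compresses differences of dim probe sets. Probe sets were named from the platform annotation: 21640 had 1 symbol, 1321 several and 11799 were unlisted. All 10 marker symbols matched RefSeq by Entrez identifier. A gene with several probe sets took the one with the highest mean. The markers and lists were chosen with earlier results of these data known; the named genes are the 10 markers and genes of the related lists and cell type lists, not all of which are named. No test was possible with 1 array per genotype. The difference rule was checked on simulated data with planted differences larger than those of the 10 markers and the same noise for every probe set. That check therefore does not cover differences of the markers' size or noise near the floor. Alternatives were loess centring, a linear offset of 32, the mean or the lowest probe set, other floors and a 1.5-fold rule. A floor on the mean of both arrays was added after seeing the data. Python 3.11.15, numpy 2.4.6, pandas 2.3.3, statsmodels 0.14.6 and matplotlib 3.10.9 were used.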

Additional observations from a re-analysis of the deposited data

How the results depend on the processing

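The floor had the most effect. Without it the proximal minus distal median was 0.55 and the distal median 0.11, against -0.22 and 0.93 for genes past the floor, because 3 dim distal genes entered. With the floor raised to 8.86, the 75th percentile, only Lct and Fabp1 were left, with a proximal median of 1.09, and with it or with a floor on the mean of both arrays no distal gene remained and no distal value was possible. The count past 2-fold was 2 after loess centring, when Fabp1 joined Lct, and 6 under the 1.5-fold rule. Fgf15 changed sign, to -0.012, after loess centring. The other 24 values of these summaries and 38 of single genes kept their direction, and moved by less than 0.25 (summaries) or stayed on their side of 2-fold (single genes). These counts include the mean and the lowest probe set, which could not alter any of these values because each marker has 1 probe set. Those settings are therefore no check of stability. No paired analysis was possible because each genotype has 1 array, and for the same reason none could be left out. Signal over background limits Pdx1, Cybrd1, Cubn, Fabp6, Slc10a2 and Fgf15.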

Other observations

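Of 5 fatty acid binding proteins outside the 10 markers 3 lay past the floor on both arrays, against 51.8% of all genes. Fabp2, the intestinal form made along the whole gut, was at 10.64 on the impaired array and 9.91 on the wildtype array (0.73), while Fabp3 and Fabp5, forms that muscle, skin and immune cells use, differed by -0.17 and -0.21, within the scaled median absolute deviation of 0.25 over genes past the floor. Fabp4, the fat cell form, and Fabp7, the brain form, were under the floor on both arrays.

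Colon genes were mostly dim. Of 5 with a value 0 lay past the floor on both arrays, against 51.8% of all genes. Car1, the colonic carbonic anhydrase, was at 5.80 on the impaired array and 5.90 on the wildtype array. Slc26a3, the chloride exchanger of the colon that the small intestine also makes, was at 8.02 on the impaired array and 6.80 on the wildtype array (1.22). Its wildtype value lay under the floor, so the size of that difference is uncertain.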
